A study of Homo sapiens with 6 samples.

Results

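The 37 genes described here encode the DNA replication machinery and the switch into S phase. They comprise G1/S cyclins and E2F factors, origin licensing factors, the MCM helicase and its partners, replicative polymerases, the sliding clamp and its loader, enzymes that supply nucleotides, and chromatin assembly factors. They were chosen by name, as the rows of the count table that carry a listed symbol, and all 37 were found among 63643 rows. RNA came from HEK293T, an established cell line of human embryonic kidney origin, labelled as deleted for GLO1, the glyoxalase that begins the breakdown of methylglyoxal (MGO). The MGO group (3 libraries) received 60 µM MGO, a reactive by-product of glycolysis, for 4 h. The Control group (3 libraries) was untreated and carries the same deletion. The study asked whether MGO sets off the transcriptional program of the integrated stress response. The labels do not say whether the line is a single clone, nor whether each replicate is a culture of its own. The p-values therefore cover the spread among these libraries, which may be technical. HEK293T cells carry SV40 large T antigen and adenoviral E1A, viral proteins known to bind the retinoblastoma proteins that hold E2F factors in check. This is a property of both groups.

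In a cycling cell, cyclin E with CDK2 releases E2F factors from retinoblastoma proteins, and E2F factors activate genes for licensing, DNA synthesis and nucleotide supply. Licensing loads MCM2 to MCM7 onto origins in G1 with the help of the origin recognition complex, CDC6 and CDT1, and geminin (GMNN) blocks CDT1 once S phase has begun. CDC45 and the GINS complex then join MCM2 to MCM7 to form the active helicase that leads the polymerases. In RNA from whole cultures, more cells in S phase and more of an RNA per cell cannot be told apart.

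Total counts per library were 128270160 to 138680220 in MGO and 117427883 to 157639431 in Control libraries. Levels are given as CPM, counts scaled by library size and by TMM, a factor that balances libraries of unequal composition. Counts of the mitochondrial genome took 12.6 to 14.7% of MGO and 5.32 to 5.55% of Control libraries, and library size alone in place of TMM moved the median log2 fold change of all genes by −0.52. GLO1 itself was counted in all libraries and averaged 101.8 ± 4.53 CPM in MGO and 37.27 ± 0.885 CPM in Control (SD, n = 3 each). The labels do not name the deleted part of GLO1, so its level is no check on the deletion or on the groups. Of 10 markers known from HEK293 cells, 3 rose and 7 fell, and their median was −0.83 on the log2 scale. CDH2 had 71.4 CPM in MGO and 184 CPM in Control, and LIN28B had 63.2 CPM in MGO and 104 CPM in Control. KRT8 had 981 CPM in MGO and 328 CPM in Control, VIM had 699 CPM in MGO and 377 CPM in Control, and the neurofilament gene NEFM was lowest at 0.555 CPM in MGO and 1.46 CPM in Control. Summed levels over 5 blood cell markers were 0.445 to 0.809 CPM in MGO and 0.175 to 0.301 CPM in Control libraries, and over 4 endothelial markers 0.292 to 0.491 CPM in MGO and 1.05 to 1.31 CPM in Control libraries. Over 5 fibroblast markers they were 5.21 to 5.78 CPM in MGO and 14.2 to 15.4 CPM in Control libraries. COL1A1 gave 4.30 CPM in MGO and 13.9 CPM in Control, and LUM 1.13 CPM in MGO and 0.729 CPM in Control. MGO replicate 1 stood apart from the other MGO libraries, with a chi-square per degree of freedom of 49.3 and 54.4 against MGO replicates 2 and 3, which gave 16.5 between themselves. Control replicate 1 likewise stood apart, with 31.7 and 23.8 against Control replicates 2 and 3, which gave 3.8 between themselves. Beyond fits that leave out each library in turn, the part of these differences in the results below was not tested.

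After MGO, 24 of the 36 tested members rose and 8 fell at an adjusted p under 0.05 in edgeR's quasi-likelihood test, which is 66.7% and 22.2% of them. Across all 23109 genes tested, 38.8% rose and 40.5% fell, or 79.3% in either direction. Of the 36 tested members, 12 were raised by at least 2-fold and 2 were lowered by at least 2-fold. Among all tested genes, 20.9% were raised and 25.8% lowered by at least 2-fold. The members' median log2 fold change was 0.74, beside −0.02 for all tested genes. It stayed above 0 under the other scalings, at 0.22 with library size alone and 0.92 with upper quartile scaling. The median of all tested genes was then −0.55 and 0.15. Of the raised members, 20 of 24 kept their call under all 3 other scalings (library size alone, upper quartile and RLE), as did 5 of the 8 lowered. MGO libraries lay wholly above Control libraries for 25 of the 36 tested members and wholly below for 9. The same was so for 39.7% and 41.8% of all tested genes, or 81.5% in either direction. The largest rise was that of the licensing factor gene CDT1 and the largest falls were those of the polymerase genes POLA1 and POLE. Without MGO replicate 1 the members divided into 24 raised and 7 lowered, and without Control replicate 1 the counts were the same.

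**Figure D1:**
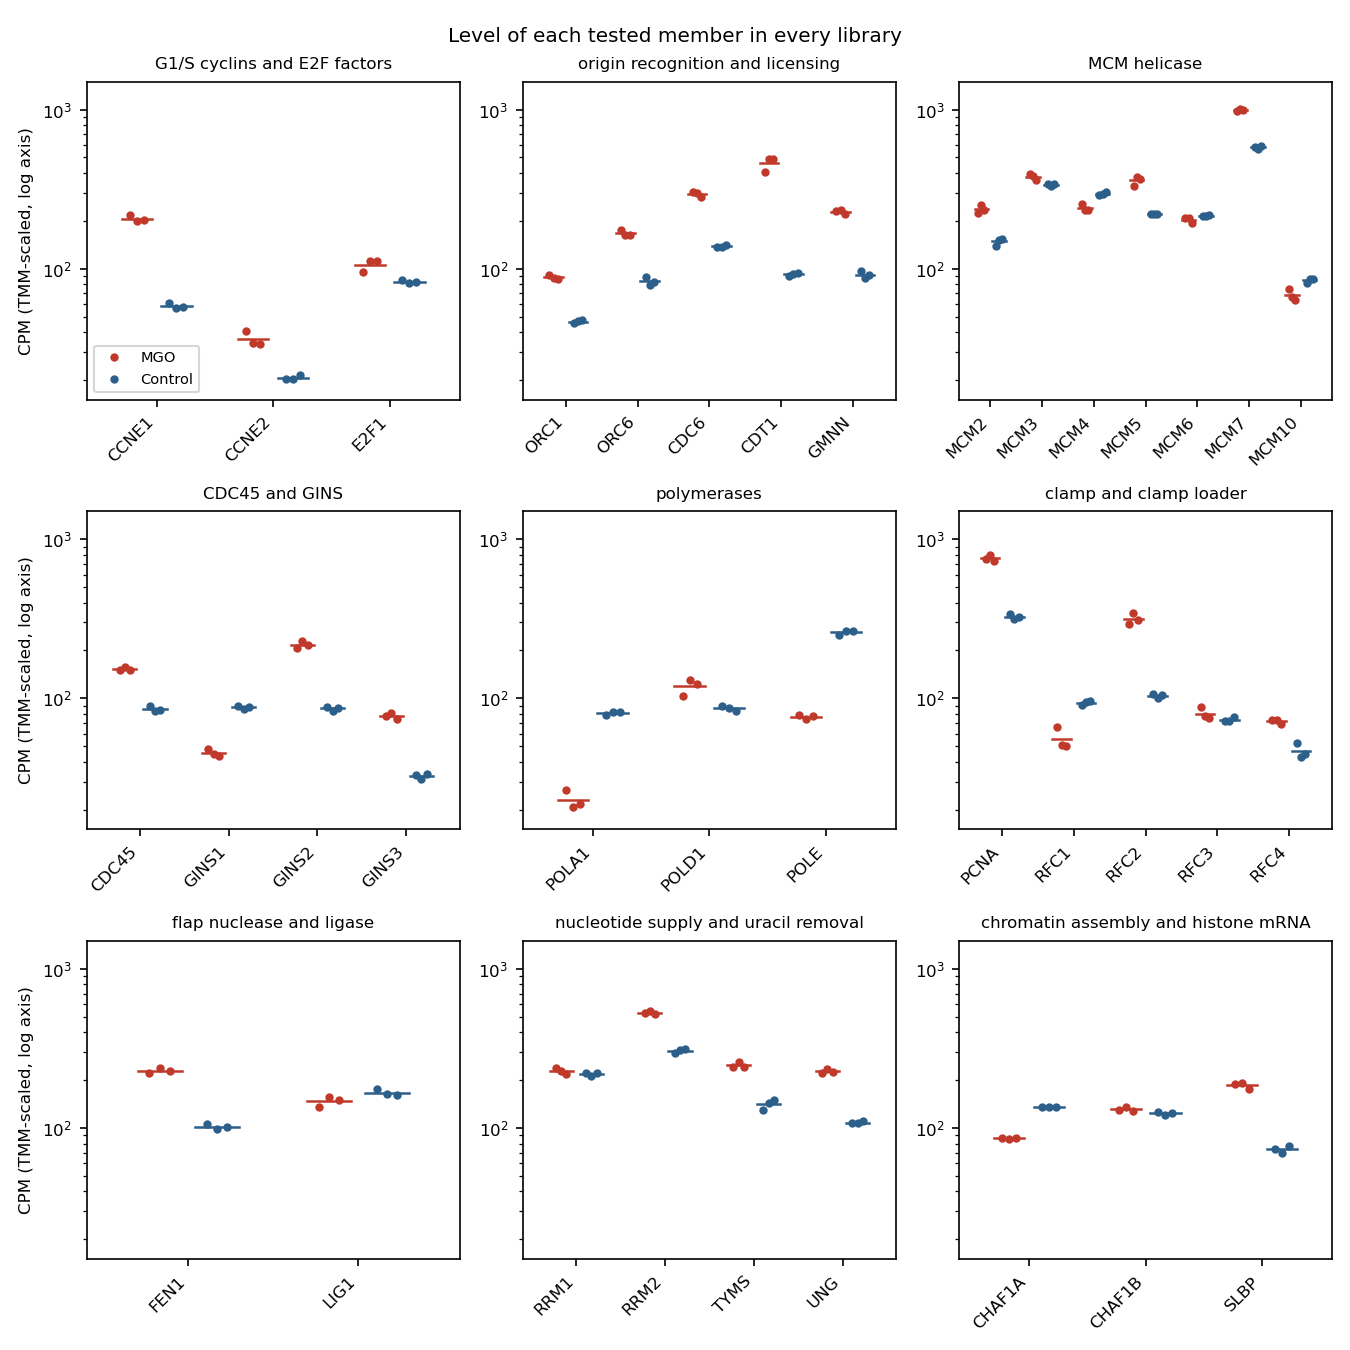
Level of each of the 36 tested members in every library, as CPM scaled by TMM on a log axis, by role. Points are libraries (3 MGO, left, and 3 Control, right) and bars are means. CDT1 lies at 407 to 490 CPM in MGO, above Control at 90.5 to 93.3 CPM, and POLE lies between 74.3 and 78.9 CPM in MGO, below Control at 251 to 267 CPM.

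One feature that the choice by name did not use is the promoter sequence. RefSeq promoter windows on GRCh38.p14, 250 bases before to 50 after the gene start, were found for 34 of the 37 members. The windows of CCNE2, MCM4 and MCM5 were not used here. Each window was searched on both strands for the E2F-type words TTTCGCGC, TTTGGCGC and TTTCCCGC. At least 1 word was found in 17 of 34 members, beside 4.22% of 13448 windows of tested genes and 2.74% of all 35116 windows. At least 2 words were found in MCM2, MCM3, MCM6 and MCM7, which is 4 members (11.8%), beside 0.193% of windows of tested genes. The words were not confined to members that rose: 10 of 22 raised, 4 of 7 lowered and 2 of 4 members not past the threshold held one. CCAAT, the word bound by NF-Y, was in 19 of 34 members (55.9%) and in 35.9% of windows of tested genes. The 5 windows below are shown because they carry these words in genes that moved in different directions. CDT1 (chr16:88803539-88803838, plus strand) and CDC6 (chr17:40287629-40287928, plus strand) rose. MCM6 (chr2:135876394-135876693, minus strand) did not pass the threshold. POLE (chr12:132687293-132687592, minus strand) and POLA1 (chrX:24693668-24693967, plus strand) fell. Each reads 5′ to 3′ along the gene, and capitals mark the E2F-type words.
CDT1: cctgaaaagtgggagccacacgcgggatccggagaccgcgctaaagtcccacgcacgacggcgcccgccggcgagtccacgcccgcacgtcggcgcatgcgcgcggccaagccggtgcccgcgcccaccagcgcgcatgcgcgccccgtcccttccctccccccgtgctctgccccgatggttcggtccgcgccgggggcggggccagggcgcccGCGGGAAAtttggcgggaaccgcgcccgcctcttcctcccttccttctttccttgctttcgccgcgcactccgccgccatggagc
CDC6: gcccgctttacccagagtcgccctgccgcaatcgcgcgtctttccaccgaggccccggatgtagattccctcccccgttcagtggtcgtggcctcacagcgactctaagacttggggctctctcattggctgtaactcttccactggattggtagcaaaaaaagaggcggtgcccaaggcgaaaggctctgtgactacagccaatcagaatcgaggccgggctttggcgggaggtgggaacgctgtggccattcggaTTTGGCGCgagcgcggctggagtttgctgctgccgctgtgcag
MCM6: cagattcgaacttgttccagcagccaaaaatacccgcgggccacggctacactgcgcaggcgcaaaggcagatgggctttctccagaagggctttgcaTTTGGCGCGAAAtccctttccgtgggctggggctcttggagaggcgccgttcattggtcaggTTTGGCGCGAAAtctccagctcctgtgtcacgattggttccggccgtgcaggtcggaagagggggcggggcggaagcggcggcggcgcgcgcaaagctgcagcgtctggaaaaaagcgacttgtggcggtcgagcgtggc
POLE: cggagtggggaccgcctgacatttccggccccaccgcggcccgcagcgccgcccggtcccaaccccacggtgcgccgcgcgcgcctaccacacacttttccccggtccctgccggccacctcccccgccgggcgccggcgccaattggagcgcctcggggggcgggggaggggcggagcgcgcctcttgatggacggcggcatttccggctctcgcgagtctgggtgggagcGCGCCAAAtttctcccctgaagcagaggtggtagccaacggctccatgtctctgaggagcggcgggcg
POLA1: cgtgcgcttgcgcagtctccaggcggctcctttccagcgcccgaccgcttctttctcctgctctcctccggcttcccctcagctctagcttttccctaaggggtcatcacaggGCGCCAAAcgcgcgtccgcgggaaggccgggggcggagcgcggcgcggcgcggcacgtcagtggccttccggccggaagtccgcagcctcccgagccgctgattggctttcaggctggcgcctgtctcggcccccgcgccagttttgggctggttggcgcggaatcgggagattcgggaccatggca
In CDT1 the word began 35 bases before the RefSeq start, in POLE 18 bases before it and in POLA1 137 bases before it, each on the opposite strand. In CDC6 it began 7 bases after the start. MCM6 held 4 matches in 2 pairs, in which TTTGGCGC overlaps TTTCGCGC on the other strand. The 2 matches of MCM2, whose window is not shown, also overlap, as TTTCGCGC on both strands. A match describes the letters and shows no binding.

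The 3 tested cyclin E and E2F members rose, beside 38.8% of all tested genes, although E2F1 did not under library size alone. CCNE1 (chromosome 19, 29811898 to 29824308), which encodes cyclin E1, the activating partner of CDK2, had 217, 200 and 202 CPM in the MGO libraries and 60.6, 56.5 and 57.7 CPM in the Control libraries. Its groups lay far apart, with a log2 fold change of 1.82 (SE 0.06, adjusted p = 1.49e-10). CCNE2, the gene of the second cyclin E, had 40.3, 34.2 and 33.5 CPM in MGO and 20.2, 20.2 and 21.4 CPM in Control libraries. It rose by 0.80 (SE 0.08, adjusted p = 1.16e-06). E2F1, a transcriptional activator of S phase genes, had 95.01, 111 and 112 CPM in MGO and 84.3, 80.8 and 82.5 CPM in Control libraries. Its rise was small, at 0.36 (SE 0.07, adjusted p = 0.000558), and under library size alone it was called lower, at −0.17 (adjusted p = 0.0378). E2F2, a related activator, had 1, 0 and 3 counts in MGO and 1, 2 and 2 counts in Control libraries and was not tested. LDHA and FBL, which most cells use, had 8 and 7 counts over all 6 libraries, so the low count of E2F2 is not read as absent expression. Exons of CCNE2 overlap those of INTS8 on the opposite strand over 37.05% of their length, and no source used here gives the strand setting of the counting, so its level is uncertain. The same holds for MCM2 (22.71% of exon length) and GINS3 (10.93%), which each overlap an antisense gene. Exons of POLD1 overlap those of another gene on the same strand over 8.64% of their length, so its level is uncertain whatever the strand setting. For RRM2 the same-strand overlap is 20.23%, with a gene that has no row of its own in the counts.

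All 5 origin recognition and licensing members rose, beside 38.8% of all tested genes. Their median log2 fold change was 1.1 (all tested genes −0.02), or 0.57 under library size alone (all tested genes −0.55). The rise was not shared by 16 other origin and licensing genes, of which 5 rose and 9 fell, with a median of −0.30. CDT1 (chromosome 16, 88803213 to 88809258), which brings MCM2 to MCM7 to origins, had 407, 490 and 490 CPM in the MGO libraries and 90.5, 93.0 and 93.3 CPM in the Control libraries. This is a 5.01-fold rise (log2 fold change 2.32, SE 0.08, adjusted p = 1.34e-10), higher than the log2 fold change of 97.3% of tested genes. MGO replicate 1 was the lowest of the 3 MGO libraries, and without it the log2 fold change was 2.41. GMNN, whose product geminin inhibits CDT1, had 231, 234 and 220 CPM in MGO and 96.2, 87.5 and 90.8 CPM in Control libraries. It rose by 1.32 (SE 0.06, adjusted p = 1.4e-09), less than CDT1 did. CDC6, the ATPase that loads MCM2 to MCM7 together with CDT1, had 302, 300 and 282 CPM in MGO and 137, 136 and 141 CPM in Control libraries. Its log2 fold change was 1.1 (SE 0.06, adjusted p = 4.37e-09). ORC1 and ORC6, subunits of the origin recognition complex, rose by 0.92 (SE 0.06) and 1.01 (SE 0.07). ORC1 averaged 88.1 ± 2.56 CPM in MGO and 46.5 ± 1.15 CPM in Control, and ORC6 167 ± 6.91 CPM in MGO and 83.2 ± 4.77 CPM in Control (SD, n = 3 each).

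The MCM helicase genes divided. Of 7 members, 4 rose and 2 fell, beside 38.8% and 40.5% of all tested genes, and MCM6 missed the threshold. Their median was 0.17 (all tested genes −0.02), and −0.36 under library size alone (all tested genes −0.55). MCM7 had 985, 1013 and 995 CPM in MGO and 585, 566 and 587 CPM in Control libraries. It was the highest member in CPM in both groups and rose by 0.78 (SE 0.06, adjusted p = 7.46e-08). Exons of MCM7 overlap those of AP4M1 on the opposite strand over 8.94% of their length, so its level is uncertain. MCM5 rose by 0.70 (SE 0.07) and MCM2 by 0.67 (SE 0.07), with 358 ± 24.8 and 236 ± 13 CPM in MGO and 220 ± 0.422 and 148 ± 7.71 CPM in Control (SD, n = 3 each). MCM3 was slightly higher, at 378 ± 16.1 CPM in MGO and 337 ± 6.35 CPM in Control (log2 fold change 0.17, SE 0.06, adjusted p = 0.0219). Under library size alone MCM3 was called lower, at −0.36 (adjusted p = 0.00032). MCM4 had 253, 235 and 235 CPM in MGO and 289, 293 and 301 CPM in Control libraries. The log2 fold change was −0.29 (SE 0.06, adjusted p = 0.000823), but upper quartile scaling took it above the threshold (adjusted p = 0.0974). MCM6 had 207, 208 and 194 CPM in MGO and 215, 213 and 217 CPM in Control libraries. The groups did not overlap, but the change of −0.08 (SE 0.06, adjusted p = 0.228) did not pass the threshold, and it turned to 0.09 under upper quartile scaling. Under library size alone MCM6 was called lower, at −0.61 (adjusted p = 2.72e-06). MCM10, which is outside the hexamer and helps to activate it, was at 67.9 ± 5.42 CPM in MGO and 84.3 ± 2.93 CPM in Control (log2 fold change −0.31, SE 0.07, adjusted p = 0.0013). It too passed above the threshold when upper quartile scaling was used (adjusted p = 0.072). MCM3 lost its call when Control replicate 2 was left out (adjusted p = 0.101) and when Control replicate 3 was (0.0737).

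Of CDC45 and the GINS genes, whose products complete the helicase, 3 rose and GINS1 fell. Of all tested genes, 38.8% rose and 40.5% fell. GINS2 had 206, 228 and 216 CPM in MGO and 88.3, 83.7 and 87.5 CPM in Control libraries (log2 fold change 1.33, SE 0.06, adjusted p = 1.34e-09). GINS3 had 77.8, 80.7 and 74.3 CPM in MGO and 33.1, 31.1 and 33.2 CPM in Control libraries (log2 fold change 1.26, SE 0.06, adjusted p = 2.03e-09). GINS1 went the other way, with 47.9, 44.5 and 43.2 CPM in MGO and 89.4, 85.8 and 88.2 CPM in Control libraries. Its log2 fold change was −0.96 (SE 0.06, adjusted p = 2.12e-08), and it fell under each of the other scalings. CDC45 rose by 0.84 (SE 0.06), to 153 ± 4.60 CPM in MGO against 85.8 ± 3.77 CPM in Control (SD, n = 3 each).

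Of the catalytic subunits of the replicative polymerases, 2 fell and POLD1 rose, beside 40.5% lowered and 38.8% raised of all tested genes. POLA1 (chromosome X, 24693919 to 24996986), the catalytic subunit of polymerase alpha, which extends primers, had 26.7, 20.8 and 21.6 CPM in the MGO libraries and 79.0, 81.5 and 81.8 CPM in the Control libraries. Its log2 fold change was −1.81 (SE 0.09, adjusted p = 1.7e-09), or −1.92 without MGO replicate 1. POLE (chromosome 12, 132623753 to 132687365), the leading strand polymerase, had 78.9, 74.3 and 77.6 CPM in MGO and 251, 267 and 264 CPM in Control libraries. Its log2 fold change was −1.76 (SE 0.06, adjusted p = 1.49e-10). POLD1, the catalytic subunit of the lagging strand polymerase, had 104, 130 and 123 CPM in MGO and 89.7, 86.4 and 83.4 CPM in Control libraries. It rose by 0.46 (SE 0.08, adjusted p = 0.000209) and turned to −0.07 under library size alone. POLA1 and POLE also have the longest annotated transcripts of the tested members, at 5440 and 7320 nt. With each library's trend on the length, genomic span and GC content of genes removed, their log2 fold changes were −0.52 and −0.34.

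The sliding clamp and its loader did not move as a unit. PCNA, the ring that tethers polymerases to DNA, had 754, 791 and 727 CPM in MGO and 339, 316 and 325 CPM in Control libraries (log2 fold change 1.21, SE 0.06, adjusted p = 2.73e-09). RFC1 to RFC4 encode subunits of the loader that opens this ring. RFC2 had 295, 342 and 313 CPM in MGO and 107, 100.3 and 106 CPM in Control libraries, a rise of 1.60 (SE 0.07, adjusted p = 6.4e-10). RFC4 rose by 0.63 (SE 0.08, adjusted p = 9.29e-06), but library size alone took it above the threshold (adjusted p = 0.293), as did removal of the length trend (0.11, adjusted p = 0.0953). RFC3 overlapped between groups, with 88.8, 77.1 and 74.8 CPM in MGO and 72.1, 72.4 and 76.3 CPM in Control libraries (log2 fold change 0.12, SE 0.07, adjusted p = 0.136). RFC3 was called at −0.40 under library size alone, at 0.30 under upper quartile scaling and at 0.31 with the length trend removed. All tested genes had medians of −0.55, 0.15 and 0.15 in these settings. RFC1, the large subunit, had 66.3, 51.1 and 50.2 CPM in MGO and 91.1, 94.6 and 96.5 CPM in Control libraries. Its log2 fold change was −0.75 (SE 0.10, adjusted p = 1.24e-05), and it turned to 0.31 with the length trend removed. FEN1, which cuts the flaps of Okazaki fragments, rose by 1.17 (SE 0.06), with 229 ± 7.49 CPM in MGO and 102 ± 3.57 CPM in Control (SD, n = 3 each). LIG1, which joins those fragments, had 136, 157 and 150 CPM in MGO and 176, 164 and 161 CPM in Control libraries. Its small fall (log2 fold change −0.18, SE 0.07, adjusted p = 0.0344) was no longer called when MGO replicate 1 (adjusted p = 0.0618), MGO replicate 3 (0.068), Control replicate 1 (0.117) or Control replicate 2 (0.0575) was left out.

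Among members for nucleotide supply and uracil removal, 3 of 4 rose, beside 38.8% of all tested genes. RRM2, the small subunit of ribonucleotide reductase, had 529, 543 and 518 CPM in MGO and 296, 310 and 313 CPM in Control libraries (log2 fold change 0.79, SE 0.06, adjusted p = 8.13e-08). RRM1, its large subunit, overlapped between groups, with 240, 227 and 219 CPM in MGO and 222, 214 and 223 CPM in Control libraries. Its change of 0.06 (SE 0.06, adjusted p = 0.397) did not pass the threshold. RRM1 was called at −0.47 under library size alone, at 0.23 under upper quartile scaling and at 0.20 with the length trend removed. The medians of all tested genes in these settings were −0.55, 0.15 and 0.15. TYMS, which makes thymidylate, rose by 0.82 (SE 0.07). Its exons overlap those of ENOSF1 on the opposite strand over 39.15% of their length, so its level is uncertain. UNG, which removes uracil from DNA, rose by 1.07 (SE 0.06). UNG averaged 227 ± 7.05 CPM in MGO and 108 ± 1.90 CPM in Control (SD, n = 3 each).

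The genes for chromatin assembly at the fork split, although their products form a single complex. CHAF1A, the large subunit of chromatin assembly factor 1, had 86.3, 85.3 and 86.5 CPM in MGO and 135.9, 136.0 and 135.9 CPM in Control libraries. The log2 fold change was −0.66 (SE 0.06, adjusted p = 2.61e-07). CHAF1B, its partner, had 129, 136 and 128 CPM in MGO and 125, 122 and 124 CPM in Control libraries. The groups did not overlap, but the change of 0.08 (SE 0.06, adjusted p = 0.199) did not pass the threshold. CHAF1B was called in opposite directions by other settings, at −0.44 under library size alone (adjusted p = 2.69e-05), 0.26 under upper quartile scaling (0.00166) and 0.81 with the length trend removed (7.15e-09). All tested genes then had medians of −0.55, 0.15 and 0.15. SLBP, which binds the stem-loop of histone mRNAs, had 189, 191 and 176 CPM in MGO and 73.7, 69.9 and 76.9 CPM in Control libraries. It rose by 1.33 (SE 0.07, adjusted p = 1.51e-09).

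**Figure D2:**
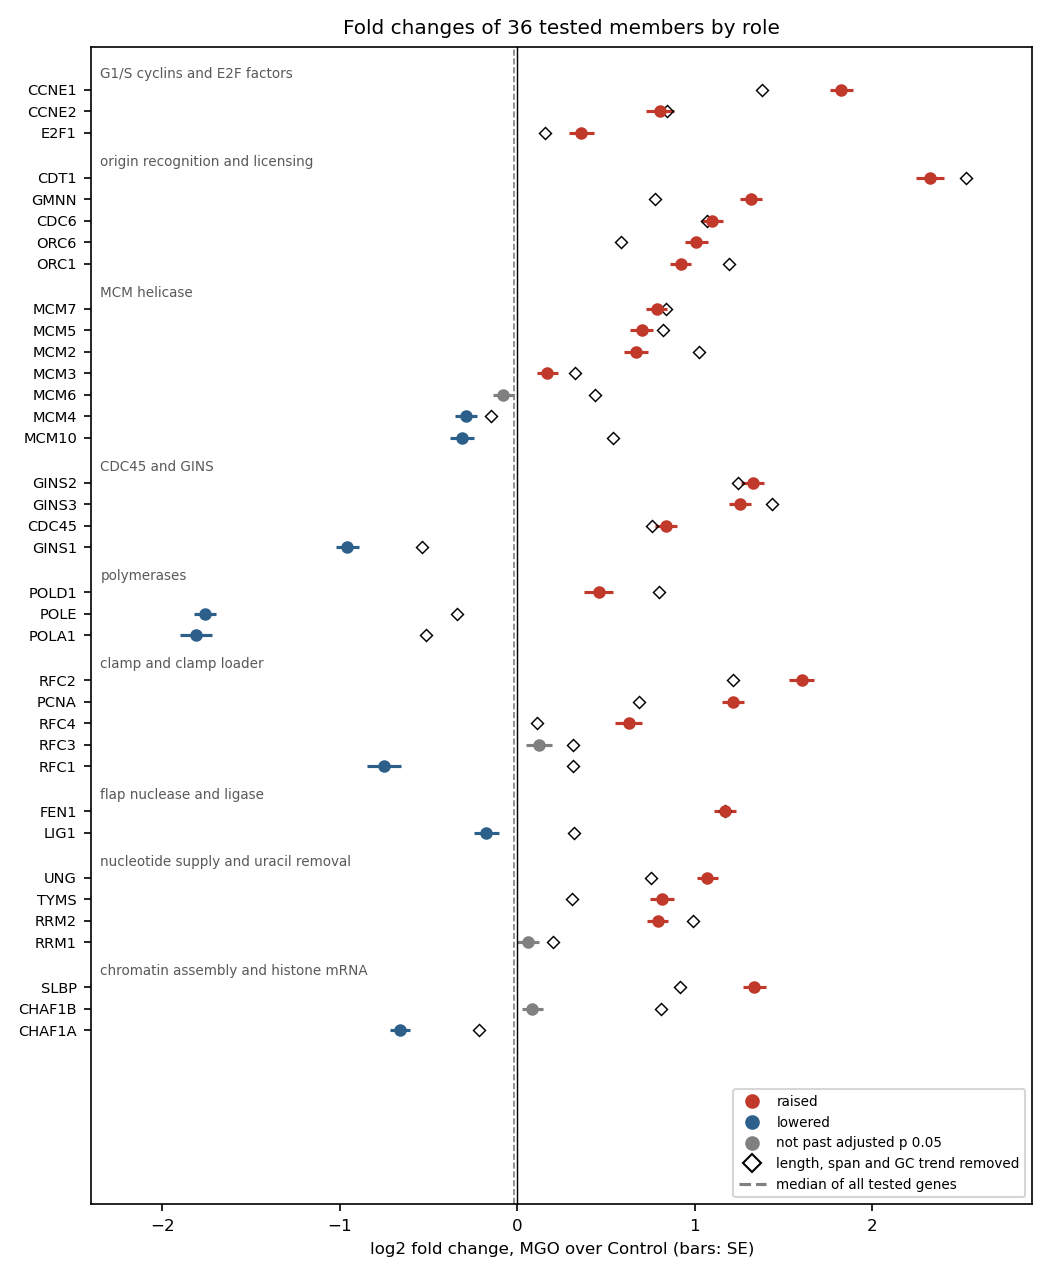
Log2 fold change of MGO over Control for 36 tested members, grouped by role. Filled points with SE bars are the edgeR values coloured by call, open diamonds are values with the length, span and GC trend removed, and the dashed line is the median of all tested genes (−0.02). CDT1 stands highest at 2.32, and POLA1 and POLE lie lowest at −1.81 and −1.76 and move to −0.52 and −0.34 with the trend removed.

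Ratios of 2 genes within a library do not depend on scaling, so partner genes were also compared as ratios of their counts. The ratios were not corrected for the trend of fold change on transcript length described below. Lengths differ within pairs, as for RFC2 (1635 nt) and RFC1 (4859 nt), POLD1 (3479 nt) and POLA1 (5440 nt), or MCM10 (4547 nt) and MCM2 (3622 nt). The CDT1 to GMNN ratio was 1.76, 2.10 and 2.23 in MGO and 0.940, 1.06 and 1.03 in Control libraries. The CCNE1 to CCNE2 ratio was 5.38, 5.86 and 6.05 in MGO and 3, 2.79 and 2.69 in Control libraries. In both, every MGO library lay above every Control library. The RRM1 to RRM2 ratio was 0.432 ± 0.019 in MGO and 0.717 ± 0.029 in Control, and the CHAF1A to CHAF1B ratio 0.657 ± 0.025 in MGO and 1.1 ± 0.017 in Control (SD, n = 3 each). The POLD1 to POLA1 ratio was 3.88, 6.23 and 5.71 in MGO and 1.13, 1.06 and 1.02 in Control libraries, and the RFC2 to RFC1 ratio 4.44, 6.68 and 6.23 in MGO and 1.17, 1.06 and 1.096 in Control libraries. MGO replicate 1 was the closest to Control in both. The MCM10 to MCM2 ratio was 0.289 ± 0.037 in MGO and 0.569 ± 0.010 in Control, and the CDC6 to ORC1 ratio 3.34 ± 0.091 in MGO and 2.96 ± 0.052 in Control (SD, n = 3 each). The PCNA to FEN1 ratio overlapped, with 3.40, 3.34 and 3.17 in MGO and 3.20, 3.20 and 3.21 in Control libraries. Two-sided exact permutation tests gave p = 0.1 for 8 of the 9 ratios, the smallest value that 3 against 3 libraries allow, and p = 0.4 for PCNA to FEN1. Adjusted over the 9 ratios these are 0.113 and 0.4, so none could pass 0.05 in this design. The groups also lay apart in CPM for 81.5% of all tested genes. Ratios of other pairs of genes were not computed, so a lack of overlap is not particular to these pairs.

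**Figure D3:**
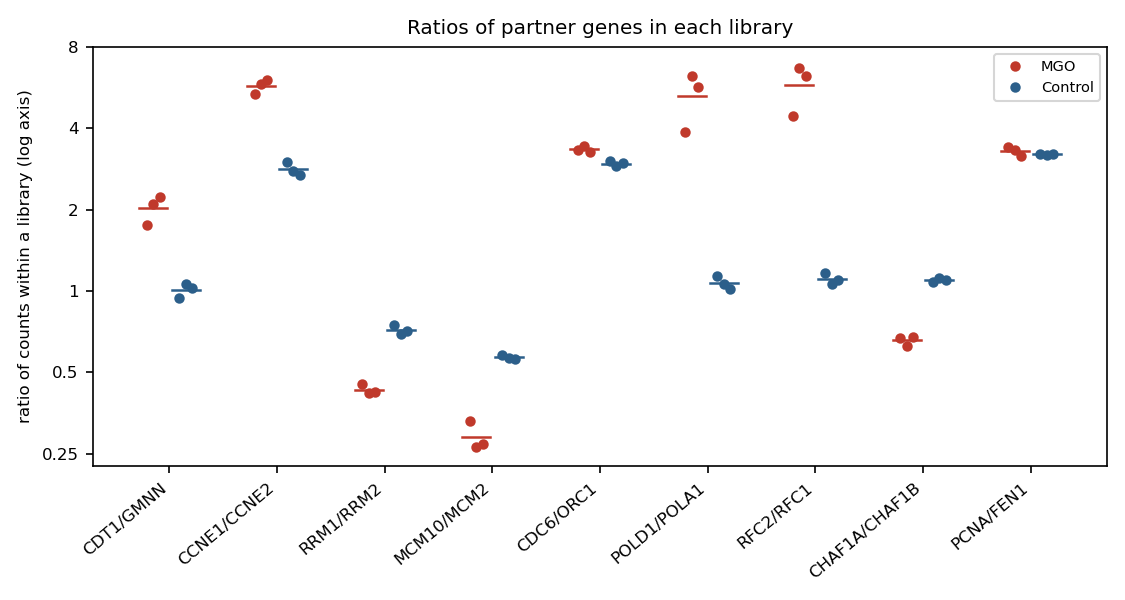
Ratio of the counts of partner genes within each library, on a log axis, for 9 pairs. Points are libraries (3 MGO, left, and 3 Control, right) and bars are means. The groups do not overlap for 8 pairs, beside 81.5% of all tested genes by their CPM. Other pairs of genes were not compared. PCNA to FEN1 spans 3.17 to 3.40 in MGO, which covers the Control values of 3.20 to 3.21.

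Per kilobase of transcript, the listed subunits of the clamp loader, GINS and MCM2 to MCM7 also stood further apart after MGO. The RFC1 to RFC4 levels spanned 13.2-, 19.9- and 18.5-fold from RFC1 to RFC2 in the MGO libraries and 3.48-, 3.15- and 3.26-fold in the Control libraries. GINS1 was the lowest and GINS2 the highest of GINS1 to GINS3 in MGO libraries, at 13.9 and 81.2 CPM per kb, a span of 5.24- to 6.24-fold. In Control libraries GINS3 was the lowest and GINS2 the highest, at 16.8 and 32.4 CPM per kb, a span of 1.90- to 1.94-fold. For MCM2 to MCM7, the lowest and highest were MCM6 and MCM7 in MGO (54.4 and 336 CPM per kb), against MCM2 and MCM7 in Control (41.0 and 195 CPM per kb). That span was 5.99- to 6.46-fold in MGO and 4.58- to 5.12-fold in Control libraries. These spans are descriptions, with no test, and they cover members only, so RFC5 and GINS4 are left out. Spans of other sets of genes were not computed, so a wider span is not particular to these complexes. Dividing by length does not remove the trend of fold change on length described below. With that trend removed the log2 fold change was 1.21 for RFC2 and 0.31 for RFC1. It was 1.24 for GINS2 and −0.54 for GINS1, and 0.84 for MCM7 and 0.44 for MCM6.

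The members' fold changes followed the length of their transcripts. Over the 36 tested members, the log2 fold change had a Pearson correlation of −0.68 with log2 transcript length and −0.69 with log2 gene span, and a Spearman correlation of −0.69 and −0.65. Over 21748 tested genes with an annotated length, Pearson values were −0.28 and −0.21. Genes share libraries and are not independent replicates, so these are descriptions. Among the 18 members with a transcript of at most 2893 nt, the members' median, 16 rose and the other 2, RFC3 and RRM1, did not pass the threshold, with a median of 1.08. Among the 18 longer ones, 8 rose and 8 fell, with a median of 0.00. CDT1 was the main exception by transcript length, at 3240 nt but only 6.05 kb of gene span. GINS3, with a gene span of 111 kb, rose by 1.26. For both genes the RefSeq promoter window lies wholly inside the annotated gene span, so these lengths depend on the annotation. With the trend on length, span and GC content removed, 30 members rose and 5 fell, beside 10284 raised and 7833 lowered of all 23109 genes, whose median moved by 0.17. In that setting 23 of the 24 raised and 5 of the 8 lowered kept their call, and RFC4 was the raised member that did not. MCM10, RFC1 and LIG1 turned to 0.54, 0.31 and 0.32, and MCM6 reached 0.44. Set beside all tested genes in the same decile of transcript length, 30 of 36 members lay above that decile's median fold change and 20 above its 75th percentile. None lay below its 25th percentile. This comparison of lengths was added after the data were seen.

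**Figure D4:**
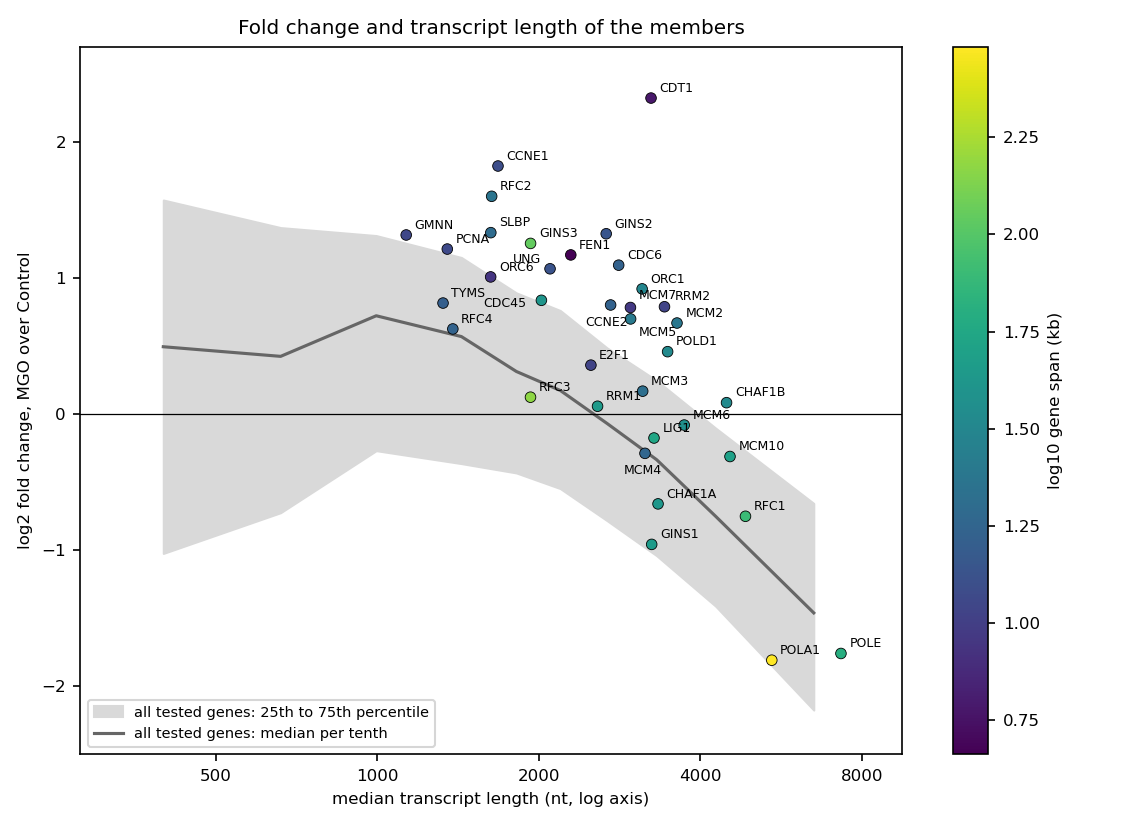
Log2 fold change of MGO over Control against median transcript length (log axis) for the 36 tested members, coloured by gene span. The line and band give the median and the 25th to 75th percentile of all tested genes in each decile of transcript length. Members fall with length as other genes do (Pearson −0.68 over members), and 30 of 36 lie above the median of their decile.

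Other genes of the same pathways made 5 lists, with 107 tested. Of these, 57 rose and 38 fell (53.3% and 35.5%, beside 38.8% and 40.5% of all tested genes). The median of these 107 genes was 0.24 (all tested genes −0.02), and −0.29 under library size alone (all tested genes −0.55). Of 16 other origin and licensing genes, 5 rose and 9 fell (31% and 56%). DBF4, the activator of the CDC7 kinase that fires origins, rose by 1.13 (SE 0.08), and DONSON rose by 1.05 (SE 0.06). WDHD1 and MCM8 had log2 fold changes of −1.59 (SE 0.10) and −1.55 (SE 0.09). Of 25 other polymerase and fork subunits, 17 rose and 6 fell (68% and 24%). RPA3, a subunit of the single-strand binding protein, and POLE4, a small subunit of polymerase epsilon, rose by 1.61 and 1.60 (SE 0.07 each). The checkpoint mediator genes CLSPN and TIMELESS had log2 fold changes of −1.54 (SE 0.09) and −1.07 (SE 0.06). POLE4 moved opposite to POLE, and their transcripts have 1248 and 7320 nt.

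Of 22 other nucleotide supply genes, 11 rose and 6 fell (50% and 27.3%, beside 38.8% and 40.5% of all tested genes). NME1 stood at 1.70 (SE 0.08). NME2 averaged 14.8 ± 1.39 CPM in MGO and 5.54 ± 0.112 CPM in Control (SD, n = 3 each). NME1 and NME2 are near-identical neighbours, so their counts are uncertain. CAD, which starts pyrimidine synthesis, fell by 1.74 on the log2 scale (SE 0.09). Of 34 other G1/S regulators, 20 rose and 13 fell (58.8% and 38.2%). CDKN1B, whose product p27 inhibits cyclin E with CDK2, had 485, 485 and 463 CPM in MGO and 98.5, 95.8 and 97.7 CPM in Control libraries (log2 fold change 2.29, SE 0.06). FBXO5, the gene of EMI1, which inhibits the anaphase-promoting complex, rose by 2.16 (SE 0.07) to 357 ± 18.0 CPM in MGO against 80.2 ± 3.51 CPM in Control. The G1 kinase gene CDK6 had 13.1, 11.5 and 12.4 CPM in MGO and 80.7, 103 and 99.9 CPM in Control libraries (log2 fold change −2.94, SE 0.10). RBL2, a retinoblastoma family member, had a log2 fold change of −2.61 (SE 0.08). Activators and inhibitors of the G1/S switch stood among both the raised and the lowered genes.

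Of 10 replication-coupled chromatin genes, 4 rose and 4 fell (40% each), near the 38.8% and 40.5% of all tested genes. ASF1A, a histone chaperone, stood at 1.29 (SE 0.07) and HAT1 at 0.78 (SE 0.08). The histone chaperone gene SUPT16H and the maintenance methyltransferase gene DNMT1 had log2 fold changes of −1.06 (SE 0.08) and −0.90 (SE 0.06), and DNMT1 turned to 0.33 with the length trend removed. Of 24 genes of G2 and mitosis, 14 rose and 7 fell (58.3% and 29.2%). The median of these 24 genes was 0.52 (all tested genes −0.02), and −0.01 under library size alone (all tested genes −0.55). UBE2C and AURKB stood at 2.05 (SE 0.07) and 1.56 (SE 0.07), and CENPF and CENPE at −2.48 (SE 0.12) and −2.47 (SE 0.14). Whether S phase members rose more often than G2 and M phase genes was not tested.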

How the data were processed

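The deposited table holds raw gene counts for 6 libraries, made from polyA RNA with a stranded kit per the labels' protocols. Per the submitters' processing notes, STAR 2.7.0a and featureCounts 2.0.6 were used with the build hg38, beside Trim Galore 0.6.10, FastQC 0.12.0, DESeq2 1.42.0 and SAMtools 1.19.2. The gene annotation, strand setting and treatment of multiply matching reads are not stated there. Counts were fitted over the whole table by the quasi-likelihood test of edgeR 4.0.16 in R 4.3.3 (TMM, low counts removed by filterByExpr, Benjamini-Hochberg over 23109 genes, threshold 0.05), a procedure tested on simulated data. The SE was taken as |log2 fold change| over the root of the F statistic. Alternatives were other scalings and filters, DESeq2 1.42.0, limma-voom (limma 3.58.1), a replicate block, leaving out each library, and offsets that remove each library's trend on gene span, GC content and transcript length (natural splines, 5 degrees of freedom each). GENCODE release 29 on GRCh38, the assembly of hg38, gave coordinates and lengths for all 37 members. Transcript length is the median over basic coding transcripts. All 37 members are named, and from each other list the 2 genes that rose most and the 2 that fell most among those called, of which 1 is not reported here. The members and lists were chosen with earlier results of these data known. Protein sequences were not used here. No pair of replicates agreed within sampling noise (smallest chi-square per degree of freedom 3.8), so the spread between libraries, more than their depth, sets the precision.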

Additional observations from a re-analysis of the deposited data

How the results depend on the processing

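The counts of 24 raised and 8 lowered members held within 1.5 times under RLE size factors, both other filters, DESeq2, limma-voom and the replicate block. Under library size alone 20 members were raised and 14 lowered, with a median of 0.22, beside 5673 raised and 12885 lowered of all 23109 genes. Raised genes were then 30.6% of all calls, against 48.9% with TMM. Under upper quartile scaling 5 members were lowered and the median was 0.92, and with the length trend removed 5 were lowered. Leaving out 1 library gave 23 to 24 raised and 7 to 8 lowered members. Under library size alone E2F1 (−0.17), MCM3 (−0.36), POLD1 (−0.070), RFC3 (−0.40), RRM1 (−0.47) and CHAF1B (−0.44) turned, and under upper quartile scaling MCM6 did (0.093). Of those that turned under library size alone, all but POLD1 (adjusted p = 0.41, edgeR) were called lower. Library size alone moved the median log2 fold change of all genes by −0.52, and upper quartile scaling moved it by 0.17. With the length trend removed MCM6 (0.44), MCM10 (0.54), RFC1 (0.31), LIG1 (0.32) and DNMT1 (0.33) turned. The cause of the turns with the trend removed was not tested. Without a filter MCM3 lost its call (adjusted p = 0.11, edgeR).

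Same-numbered libraries did not deviate together (correlations of −0.13, −0.29 and 0.02), so replicate numbers were treated as names. With the replicate block 23 members were raised and 7 lowered, and MCM3 (adjusted p = 0.0632) and LIG1 (0.0667) lost their calls in edgeR. E2F2, with 9 counts in all, could not be tested.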
